A study of Mus musculus with 20 samples.

Results

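Glutamate and GABA carry most of the excitation and inhibition in the hippocampus. AMPA, kainate and NMDA receptors are glutamate-gated channels assembled from several subunits, metabotropic glutamate receptors signal through G proteins, GABA-A receptors are chloride channels, also of several subunits, and GABA-B receptors are G protein-coupled pairs of Gabbr1 and Gabbr2. A miRNA guides an Argonaute protein such as AGO2 to sites in the 3′UTR of an mRNA, mostly through its seed, the bases 2 to 8 of the miRNA, and mRNA that precipitates with AGO2 is mRNA in contact with that machinery. Here 33 genes of these receptors were followed, chosen by name as receptor genes found in the tables of both assays. Of them, 22 encode glutamate receptor subunits and 11 GABA receptor subunits, out of 23781 genes with a symbol in the mRNA table.

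All mice were adult male C57BL/6 mice with AAV5 vectors injected into the hippocampus, apart from the sham-injected ones, and every vector used the synapsin promoter, which is active in neurons. A sponge is a transcript with many imperfect sites for a miRNA, which occupies it. For RIP-seq, AGO2 fused to GFP was expressed together with 1 of 3 sponges and precipitated with a GFP antibody, and the polyadenylated RNA bound to it was sequenced. The sponges were aimed at miR-124 (miR124sp), at miR-125 (miR125sp) or, as the control, at miR-292 (miR292sp), which the brain does not express, and sham-injected mice without GFP-AGO2 gave the background. Each of these 4 groups had 2 libraries, each from the pooled lysate of 2 hippocampi. The mRNA-seq measured the whole hippocampus of 12 single mice, 3 with GFP and miR124sp against 3 with GFP alone (GFP124), and 3 with GFP and miR125sp against 3 other mice with GFP alone (GFP125), none of them with GFP-AGO2. Deposited counts summed to between 2417942 and 5072501 per RIP library, over 38158 annotated 3′UTR rows, and to between 6950522 and 27833176 per mouse in the mRNA-seq. The labels call the samples hippocampal neurons, but glial genes were measured in both assays: 14 astrocyte markers summed to between 5571 and 8553 CPM (counts scaled to a library of 1e+06) in the mRNA-seq, beside 6729 to 8296 CPM for 15 neuron markers. In such bulk samples fewer cells of a type and less RNA per cell cannot be told apart.

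Whether a receptor gene could be measured depended on how its annotated transcripts overlap. Of 10375 RIP rows whose bases were all shared with another row, 10374 held 0 counts in all 8 libraries, against 22.2% of the 15836 rows that share no base. Of the 63 rows of the 33 genes, 20 held 0 counts in every library, and 17 of these share all their bases. Gria1, an AMPA receptor subunit central to synaptic plasticity, has 3 nested rows on chromosome 11 that end within a few bases of each other, and all were at 0, as were the rows of Grm8, while those of Grm4 held 1 count in all. These zeros are not a sign of absent mRNA. With at least 10 counts in every library required, 27 of the 33 genes were tested in the RIP-seq, 16 for glutamate and 11 for GABA, and Gria1, Grik1, Grin1, Grin2c, Grm4 and Grm8 were not. For a gene with several rows, the row with the most counts stands for it.

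In the mRNA-seq 29 of the 33 genes were tested. Gria3, Grik1, Grik2 and Grin3a were not, each with 2 to 4 RefSeq transcripts and between 0 and 48 counts over all 12 mice, although Gria3 held 285 to 1013 counts in every RIP library. The 10 genes with several transcripts have uncertain mRNA levels, while the 23 with 1 RefSeq row can be compared with each other per kilobase.

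The 3′UTRs were searched on the sense strand for the 7 letters that pair with bases 2 to 8 of a miRNA, which are GTGCCTT for miR-124, CTCAGGG for miR-125 and CTACCTC for let-7. The following mature miRNAs are those of RefSeq (GRCm38.p6), with the seed in capitals, and are shown since miR-125a and miR-125b share 1 seed:
miR-125b-5p: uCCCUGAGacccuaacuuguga
miR-125a-5p: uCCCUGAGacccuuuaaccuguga
let-7a-5p: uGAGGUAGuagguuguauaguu

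Among the 27 tested genes, Gria2, Gria4, Grid1, Grin3a and Gabrg3 hold a miR-124 match, 5 genes in all, and Grik3, Grin2b, Gabrb2 and Gabrg3 hold a miR-125 match, 4 in all. Rows of like length hold such matches at shares that add up to 5.13 and 5.00 genes, so that the receptor genes hold about as many as their lengths give. Of all 7868 placed rows, 16.5% hold a miR-124 match, 16.1% a miR-125 match and 11.4% a let-7 match. Gabbr2 and Grin3a hold the 2 let-7 matches. The sites below are the sense strand of the NCBIM37 (mm9) genome, with the match in capitals, for the genes to which the comparisons below return:
Gria2 miR-124 site, chr3:80492443-80492464, reverse strand, 3′UTR bases 184 to 190: gaaccttctgaGTGCCTTacac
Grid1 miR-124 site, chr14:36396480-36396501, forward strand, bases 2496 to 2502: aggtatattttGTGCCTTcaga
Grin1 miR-124 site, chr2:25146812-25146833, reverse strand, bases 1066 to 1072: tgtccaagcgcGTGCCTTcccc
Gabrg3 first miR-124 site, chr7:63972582-63972603, reverse strand, bases 7191 to 7197: aagtttcttggGTGCCTTgatt
Gabrg3 last miR-124 site, chr7:63972003-63972024, reverse strand, bases 7770 to 7776: ttgtgcccaacGTGCCTTggcg
Grik3 miR-125 site, chr4:125390253-125390274, forward strand, bases 4929 to 4935: ggtgcccacagCTCAGGGctag
Grin2b miR-125 site, chr6:135681514-135681535, reverse strand, bases 592 to 598: gcttcagaagcCTCAGGGgtgg
Gabrb2 miR-125 site, chr11:42442638-42442659, forward strand, bases 2256 to 2262: gtcaccttaatCTCAGGGgcac
Gabbr2 let-7 site, chr4:46676395-46676416, reverse strand, bases 1251 to 1257: acccatcctgcCTACCTCacag

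The first comparison asked which receptor mRNAs were bound to AGO2 in neurons, as miR292sp over sham. Glutamate receptor genes covered a wide range, from Grm2, at about 10 times the sham level, to Grin3a, near it, while GABA receptor genes lay lower, from Gabbr2 down to Gabra5, Gabrd and Gabrg1 at or below the sham level. Of the 27 genes, 18 were higher with miR292sp and none was lower (edgeR quasi-likelihood test, Benjamini-Hochberg adjusted p below 0.05). That was 13 of 16 glutamate genes and 5 of 11 GABA genes, beside 59.4% of all 8203 rows higher and 0.585% lower. The median log2 fold change was 1.42 for the glutamate genes and 0.44 for the GABA genes, against 1.26 for all rows, whose middle 50% ran from 0.50 to 2.07. All 3 AMPA and all 4 kainate genes tested were higher, with 3 of 4 NMDA genes, 3 of 4 metabotropic glutamate genes, 4 of 9 GABA-A genes and 1 of 2 GABA-B genes. For Grid1, the delta receptor subunit, the log2 fold change was 0.69 with a standard error (SE) of 0.30 (adjusted p = 0.0558).

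The direction of these calls rests on the scaling. Libraries were scaled to a set of reference rows around Gapdh in the list of miR292sp to sham ratios. These reference rows took up 1.92% to 2.01% of the sham libraries but 0.697% to 0.745% of the miR292sp libraries. Under TMM scaling, which takes most rows as unchanged and moved the median of all rows from 1.26 to −0.11, 6 of the 27 were higher (Grm2, Grik3, Grik4, Grin2b, Gria3 and Gabbr2) and 10 lower, beside 21.6% of all rows higher and 19.1% lower. The 10 lower ones were Gabrg1, Gabrd, Gabra5, Gabra4, Gabra3, Gabrb1, Gabrg3, Gabbr1, Grin3a and Gria2. TMM lowered each of the 27 values by at least 1.34, and no gene moved by more than 1 place in their order. The values below are relative to the reference rows.

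**Figure D1:**
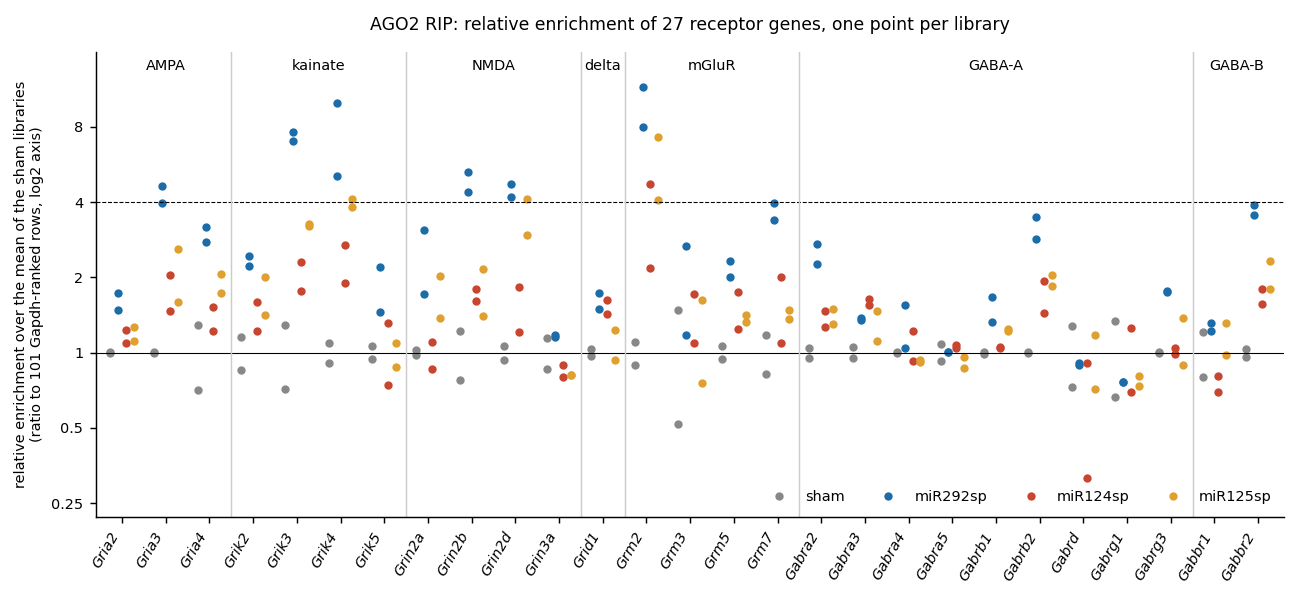
Relative enrichment in AGO2 binding (vertical log2 axis, ratio to the mean of the sham libraries after scaling to the reference rows) of the 27 tested genes, with 1 point per library and colours for the 4 groups. The dashed line marks 4-fold, which the miR292sp points of Grm2, Grik3, Grik4, Grin2b and Grin2d exceed. For these 5 genes, picked by their high miR292sp points, all miR124sp and miR125sp points lie between the sham points and the miR292sp points. Under this scaling the median log2 fold change of all rows against miR292sp was also below 0, at −0.97 for miR124sp and −0.75 for miR125sp.

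Grm2, a Gi-coupled receptor found on the terminals of dentate granule cells, had the highest enrichment. Sham gave 105 and 67 counts for it, and miR292sp gave 657 and 477. Its relative enrichment was 11.5 and 7.96 (log2 fold change 3.28, SE 0.40, n = 2 libraries per group, adjusted p = 1.44e-06, edgeR). Both libraries lay far above sham, and the gap between them was itself wide.

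Grik4, a kainate receptor subunit that needs a partner subunit to form a channel, held 251 and 135 counts with miR292sp against 46 and 30 in sham. The enrichment was 9.96 in 1 library and 5.09 in the other (log2 fold change 2.90, SE 0.45, adjusted p = 2.57e-05, edgeR). Grik3, a low-affinity kainate receptor subunit, rested on far more counts, 1811 and 1759 against 509 and 224. Its enrichment was alike in both libraries, 7.61 and 7.03 (log2 fold change 2.87, SE 0.26, adjusted p = 3.83e-08, edgeR). The sham libraries of Grik3 stood further apart, at 1.28 and 0.715.

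The log2 fold changes of the 4 NMDA receptor subunits tested ran from 0.22 to 2.27. Grin2b, the subunit that dominates early in life and slows the channel, was at 5.28 and 4.40, and Grin2d at 4.21 and 4.74. Grin2a, the other main forebrain subunit, had 3.08 and 1.72 on a row of 117 bases with 29 to 87 counts. Grin3a, which lowers the calcium permeability of NMDA receptors, was the lowest of the glutamate genes. It held 497 and 531 counts with miR292sp and 820 and 487 in sham, an enrichment of 1.15 and 1.17 that lay just above the higher sham library, at 1.14 (log2 fold change 0.22, SE 0.24, adjusted p = 0.455, edgeR).

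Among the AMPA receptor subunits, Gria3 reached 4.65 and 3.97 and Gria4 3.18 and 2.78. Gria2, the subunit that makes AMPA receptors impermeable to calcium, was the lowest of the 3, with 5009 and 4476 counts against 4807 and 3786 in sham. Its enrichment of 1.74 and 1.48 lay above both sham libraries (1.00 and 0.998), and with its high counts the change passed the test (log2 fold change 0.68, SE 0.14, adjusted p = 0.00045, edgeR). Grid1, which joins pre- and postsynaptic sides, was at 1.49 and 1.73 with 240 and 292 counts against 260 and 218 in sham.

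Of the GABA receptor genes, Gabbr2, the GABA-B subunit that couples to G proteins, ranked first. Sham gave 3741 and 2742 counts and miR292sp 8401 and 8058, and the enrichment was 3.88 and 3.54 (log2 fold change 1.89, SE 0.15, adjusted p = 7.86e-09, edgeR). Gabrb2, a β subunit of GABA-A receptors, held 6808 and 5848 counts against 3236 and 2583, an enrichment of 3.49 and 2.85 (log2 fold change 1.66, SE 0.16, adjusted p = 8.55e-08). Gabra2, an α subunit enriched at the axon initial segment, was at 2.72 and 2.25 with 427 and 372 counts against 249 and 216 (log2 fold change 1.32, SE 0.28, adjusted p = 0.000597). In each of these genes both miR292sp libraries lay above both sham libraries after scaling to the reference rows. In TMM-scaled CPM those of Gabra2 overlapped, at 88.4 and 76.5 against 86.0 and 85.0 in sham.

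The lowest GABA genes included those of extrasynaptic receptors, which carry tonic inhibition. Gabra5, the α subunit of such receptors in pyramidal cells, held 3405 and 3583 counts with miR292sp and 6095 and 4121 in sham, and its enrichment was 1.00 in both miR292sp libraries against 1.08 and 0.922 in sham. The log2 fold change was 0.00 with an SE of 0.14 (95% interval −0.29 to 0.30), so that depth did not limit this value. Leaving out a sham library also picked the reference rows anew. The value was then 0.54 without sham replicate 7 and −0.57, called lower, without sham replicate 8. In these fits the median of all rows moved as well, from 1.26 to 1.63 and to 0.92. Gabrd, the δ subunit of tonic receptors in dentate granule cells, had 0.896 and 0.911 against 0.727 and 1.27 in sham, on 45 to 159 counts per library (log2 fold change −0.14, SE 0.49, adjusted p = 0.822, edgeR). Gabrg1, a γ subunit, had 0.760 and 0.763 against 0.664 and 1.34, on 35 to 87 counts (log2 fold change −0.39, SE 0.52, adjusted p = 0.543). Neither Gabrd nor Gabrg1 could be told from the sham level at this depth.

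**Figure D2:**
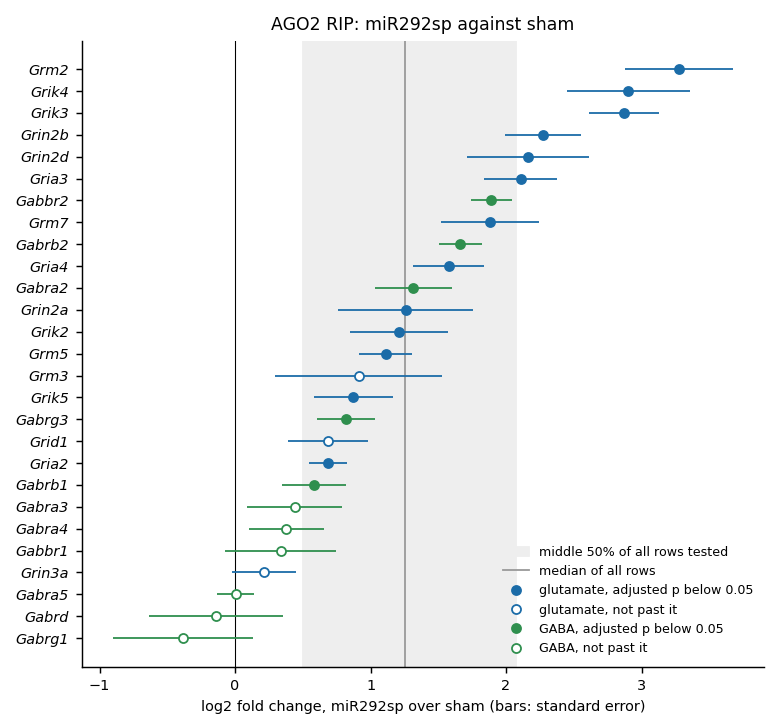
Log2 fold change of miR292sp over sham (horizontal axis) for the 27 tested genes in order, with standard errors from edgeR, filled points for adjusted p below 0.05, and colours for glutamate and GABA genes. The grey line and band are the median (1.26) and the middle 50% of all 8203 rows, and 6 glutamate genes lie to the right of the band, while the 7 lowest genes, all but Grin3a for GABA, lie to its left.

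Since ratios of counts within a library are moved by no scaling, pairs of abundant genes of high and low enrichment, chosen after their values were seen, were also set against each other. The ratio of Gabbr2 to Gabra5 counts was 0.614 and 0.665 in sham, against 2.47 and 2.25 for miR292sp, 1.07 and 0.958 for the miR124sp pair, and 1.54 and 1.32 for the miR125sp pair. The ratio of Grik3 to Gria2 counts was 0.106 and 0.0592 in sham, against 0.362 and 0.393 for miR292sp, 0.118 and 0.174 for the miR124sp pair, and 0.210 and 0.242 for the miR125sp pair. In both of these ratios the 4 groups did not overlap and stood in the order sham, miR124sp, miR125sp and miR292sp. With pairs chosen for high and low enrichment, sham below miR292sp was fixed by the choice. How many other pairs hold this order was not counted. The ratio of Grm2 to Gria2 counts was 0.0218 and 0.0177 in sham, against 0.131 and 0.107 for miR292sp, 0.0761 and 0.0394 for the miR124sp pair, and 0.114 and 0.0725 for the miR125sp pair. There the sham libraries lay below all others, and the miR125sp pair overlapped with both other sponges.

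Enrichment of 4-fold was the limit for calling a gene bound. Of the 27 genes, 6 exceeded it (Grm2, Grik4, Grik3, Grin2b, Grin2d and Gria3), all of them for glutamate, beside 27.2% of all rows. Gria3, just inside, had a mean of 4.31, and Gabbr2 and Grm7, just outside, had 3.71 and 3.69. The number was 10 genes without sham replicate 7 and 3 without sham replicate 8, each with the reference rows picked anew. Under TMM scaling 0 genes exceeded it.

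Transcripts of 1 gene could differ. The row that stands for Gabbr1, the GABA-binding subunit of GABA-B receptors, had 1.22 and 1.32. Another Gabbr1 row, chr17:37185770-37186412, had 4.39 and 5.69 on 105 and 143 counts (log2 fold change 2.32, SE 0.45, adjusted p = 0.000236, edgeR). For Grm7, a presynaptic Gi-coupled receptor, the standing row had 3.40 and 3.98 and the other tested row 0.695 and 0.643. The difference between rows was not tested.

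Marker genes moved with this comparison. Of the neuron markers 10 of 13 tested were higher with miR292sp and none lower, and of the astrocyte markers 3 of 12 were higher and 3 lower. The 14 astrocyte markers summed to 65830 to 66512 CPM of the library in sham, against 15905 to 16775 for miR292sp, 46058 to 46481 for miR124sp and 36835 to 39223 for miR125sp. Slc1a2, the astrocyte glutamate transporter, made up 88.4% to 91.1% of these sums, and none of the astrocyte markers was at 0. Their part in the receptor values was not tested.

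Genes for other proteins of these synapses were also measured. Of 48 tested genes for other receptor subunits, auxiliary subunits, scaffolds and transmitter synthesis and transport, 39 were higher with miR292sp and 1 was lower. Scaffold genes had 16 of 17 higher, among them Shank1 with 3.29 (SE 0.18) and Homer1 with 3.36 (SE 0.22), which anchor glutamate receptors in the postsynaptic density. Auxiliary subunits had 11 of 13 higher (median 1.80), among them Shisa6 with 1.80 (SE 0.13), which binds AMPA receptors. Genes for transmitter synthesis and transport had 9 of 14 higher and 1 lower, which was Slc1a2 (−0.60, SE 0.06).

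The next comparisons asked how occupying miR-124 or miR-125 changed the AGO2-bound receptor mRNA, each sponge against miR292sp under TMM scaling. With miR124sp, 3 of the 27 genes were higher (Gabra5, Gabra3 and Gria2) and 1 was lower (Grik3), beside 5.10% of all rows higher and 3.46% lower. Of the GABA genes 10 of 11 had values above 0, with a median log2 fold change of 0.41, and the 16 glutamate genes had a median of −0.16, against 0.04 for all rows. The sponge and sham comparisons share the miR292sp libraries, whose error enters both.

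Gabra5 had the clearest change. Its level in TMM-scaled CPM was 705 and 737 with miR292sp, against 1632 and 1431 for the miR124sp pair, 1158 and 1092 for the miR125sp pair, and 2105 and 1621 in sham. The miR124sp libraries overlapped with the range of sham, and the miR125sp libraries lay between them and miR292sp. The log2 fold change was 1.09 with miR124sp (SE 0.16, adjusted p = 0.000969, edgeR) and 0.64 with miR125sp (SE 0.16, adjusted p = 0.0599). The row of Gabra5, chr7:64663060-64663976 on the reverse strand, holds none of the 3 seed matches.

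Gabra3, another α subunit, had 25.9 and 27.6 CPM with miR292sp against 68.2 and 58.1 for the miR124sp pair, beside 36.9 and 50.6 for the miR125sp pair and 56.3 and 45.6 in sham (log2 fold change with miR124sp 1.24, SE 0.34, adjusted p = 0.0347, edgeR). Gria2, whose 3′UTR holds the miR-124 site given above, had 1037 and 921 CPM with miR292sp, against 1591 and 1277 for the miR124sp pair, 1295 and 1189 for the miR125sp pair, and 1660 and 1489 in sham. It was higher with the miR-124 sponge in this fit (log2 fold change 0.55, SE 0.16, adjusted p = 0.0418, edgeR). In both genes the miR124sp libraries lay above both miR292sp libraries. They also lay above sham in Gabra3, and overlapped with it in Gria2.

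Grik3 was the only tested receptor gene called lower with miR124sp, while 10 of the 27 had values below 0. It had 375 and 362 CPM with miR292sp, against 187 and 222 for the miR124sp pair, 273 and 287 for the miR125sp pair, and 176 and 88.1 in sham. The 4 groups did not overlap and stood in the order miR292sp, miR125sp, miR124sp and sham. The log2 fold change was −0.85 with miR124sp (SE 0.26, adjusted p = 0.0479, edgeR) and −0.40 with miR125sp (SE 0.25, adjusted p = 0.442). The 3′UTR of Grik3 has no miR-124 match, and its 1 match is the miR-125 site given above.

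Of these 4 calls, that of Gabra5 held when any 1 library was left out. Those of Gabra3 and Grik3 were lost without any 1 of the 4 libraries compared, and that of Gria2 without miR124sp replicate 3 or either miR292sp library. The call of Gria2 was also lost under RLE scaling (adjusted p = 0.0655) and with DESeq2 (adjusted p = 0.0615). Under scaling to the reference rows, in which the median of all rows fell to −0.97, no gene was higher and 16 of 27 were lower, beside 17 higher and 4105 lower of all 8203 rows. Gria2 was among the lower ones (−0.47), and Gabra5 and Gabra3 were not called.

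The other genes with a miR-124 match were not called in this fit. Grid1 had 49.7 and 60.1 CPM with miR292sp and 117 and 92.5 with miR124sp (log2 fold change 0.93, SE 0.29, adjusted p = 0.0515, edgeR), and was called higher with DESeq2 (adjusted p = 0.0198) and in a fit of only the 2 groups (adjusted p = 0.0324). Gria4 had −0.10 (SE 0.25), Gabrg3, with 2 matches, 0.22 (SE 0.21) and Grin3a 0.54 (SE 0.24, adjusted p = 0.156). None of the 5 genes with a miR-124 match was called lower with miR124sp. A second row of Grm7, not the one that stands for the gene, was higher with miR124sp (log2 fold change 1.74, SE 0.37, adjusted p = 0.0105, edgeR), at 48.2 and 55.4 CPM against 15.7 and 15.2.

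With miR125sp none of the 27 genes passed the test in edgeR, beside 1.18% of all rows higher and 0.232% lower. At an unadjusted p below 0.05 there were 4 of 27, beside 17.1% of all rows. DESeq2 called 1, Gabra5, as higher, beside 2.39% of all rows. Of those that hold a miR-125 match, Grin2b was the lowest, with 214 and 187 CPM with miR292sp, against 151 and 102 for the miR125sp pair, 141 and 142 for the miR124sp pair, and 138 and 78.7 in sham (log2 fold change with miR125sp −0.66, SE 0.27, adjusted p = 0.232). Its miR125sp libraries lay below both miR292sp libraries, as did those of miR124sp, for which it has no match. Gabrb2 had 0.08 (SE 0.18) and Gabrg3 0.14 (SE 0.21) with miR125sp.

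Set directly against each other, miR124sp and miR125sp differed in none of the 27 genes in edgeR or DESeq2, beside 0.00% of all rows higher and 0.0122% lower. At an unadjusted p below 0.05 there were 3, beside 5.24% of all rows. The widest differences were those of Grin2d (−0.96, 95% interval −1.89 to −0.037) and Grid1 (0.73, 95% interval 0.13 to 1.33), both of which leave room for sizeable differences between the sponges.

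**Figure D3:**
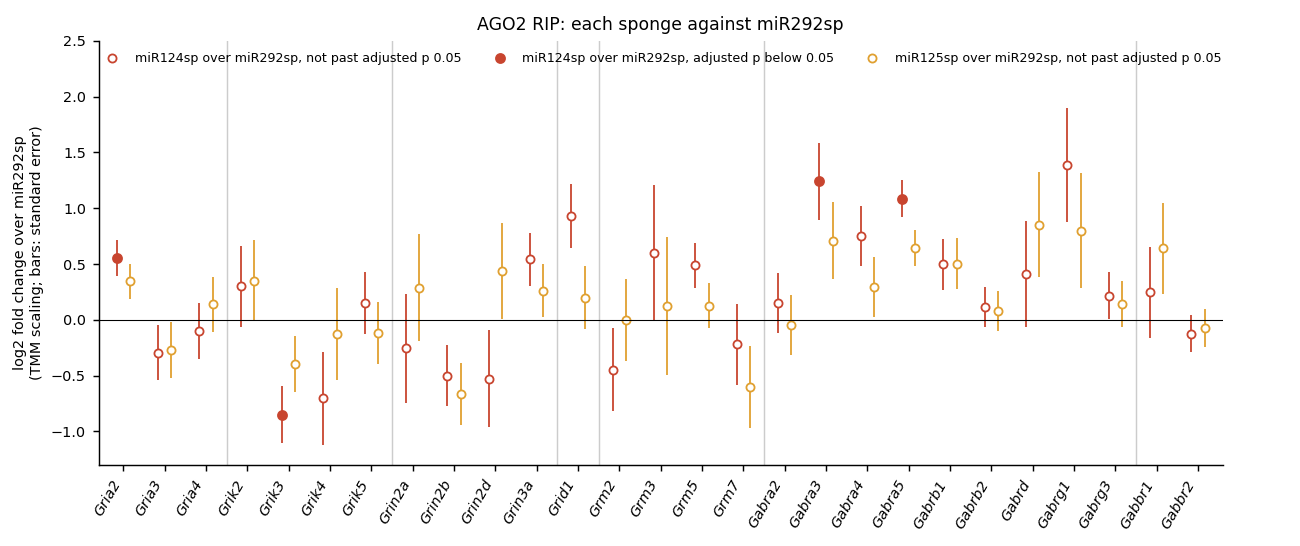
Log2 fold change of each sponge over miR292sp (vertical axis, TMM scaling, bars are standard errors from edgeR) for the 27 tested genes by receptor class. The 4 filled points, Gria2, Grik3, Gabra3 and Gabra5, passed adjusted p 0.05 with miR124sp and none did with miR125sp, and 10 of 11 GABA genes lie above 0 with miR124sp.

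Ranks of the mean enrichment over the reference rows, which a shift of all rows does not move, were compared as well. The number of bound rows, which sets the limit, rests on that scaling. A bound gene counts as lost when it leaves the 2230 highest ranks, that is, falls below rank 5974 of 8203. Grin2b had rank 6506 with miR292sp, 5936 with miR124sp and 5284 with miR125sp and so left with both sponges. Grin2d left with miR124sp only (6306, 5324 and 7521), on 36 to 128 counts per library. Of the 6 targets 2 left with miR124sp and 1 with miR125sp, beside 21.3% and 17.2% of all targets. Grm2, Grik4 and Grik3 stayed, and ranks have no test.

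The astrocyte markers again moved with the comparison. Of 12 tested, 5 were higher with miR124sp and 4 with miR125sp and none lower, and the reference rows took up 1.43% to 1.45% of the miR124sp and 1.21% to 1.29% of the miR125sp libraries, between the shares in miR292sp and in sham. In all, the 48 other synaptic genes had 8 higher and 3 lower with miR124sp and 3 higher and 1 lower with miR125sp. Slc1a2 was higher with both (1.53, SE 0.10, and 1.22, SE 0.09), Slc1a3, the other astrocyte glutamate transporter, with both (1.41 and 1.01), and Neto2, an auxiliary subunit of kainate receptors, with miR124sp (1.21, SE 0.24). The part of the astrocyte genes in the receptor values was not tested.

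In the whole hippocampus Gabbr1 had the highest mRNA level per kilobase of the genes that could be compared. These were the 23 with 1 RefSeq row, which hold all 11 GABA genes but 12 of the 22 glutamate genes, with Gria1, Gria2, Gria3, Gria4 and Grin1 among those left out. Gabbr1 had a median of 237 CPM per kilobase over the 12 mice (range 205 to 245), and did not overlap with any other. It was followed by Gabra2 (144, 96.5 to 158), Gabra5 (111), Gabbr2 (97.5, 62.8 to 111), Grik5 (89.8, 78.2 to 105) and Gabrb2 (82.9, 53.6 to 104), whose ranges overlap with those of their neighbours. Gabra4 (49.6), Gabra3 (41.9), Grin2a (40.5) and Grin2b (36.3) came next, and the lowest were Grin2d (5.47), Grm8 (4.34) and Gabrg3 (3.96). Of the 8 highest of these 23, 7 were GABA receptor genes, Grik5 being the exception.

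**Figure D4:**
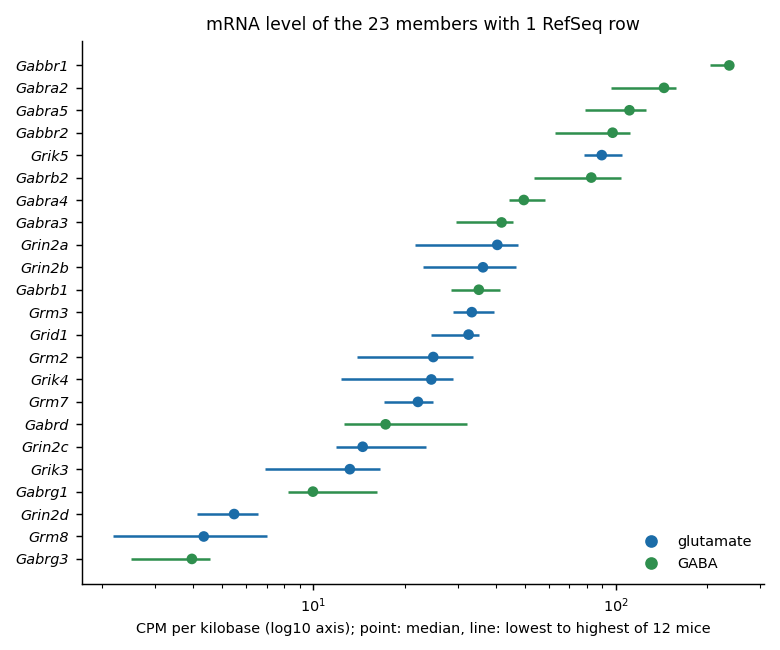
mRNA level of the 23 genes with 1 RefSeq row, in CPM per kilobase on a log10 axis, as the median (point) and the range (line) over the 12 mice, coloured for glutamate and GABA. Gabbr1 stands alone at the top and most neighbours overlap, and the 10 genes left out all encode glutamate receptors.

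The mRNA comparisons asked whether receptor mRNA changed when miR-124 or miR-125 was occupied. In the miR-124 experiment 12 of 29 genes were higher in the miR124sp mice than in their GFP mice and 1, Gabrg1, was lower, beside 12.6% of all 12971 genes higher and 10.7% lower. The 8 higher glutamate genes were Grm4, Grm8, Grm2, Grik3, Grin2a, Grin1, Grin2b and Grid1, and the 4 higher GABA genes Gabrd, Gabrb2, Gabrg3 and Gabbr2. The median log2 fold change was 0.24 for the glutamate genes and 0.00 for the GABA genes, against −0.01 for all genes. None of the 3 AMPA receptor genes tested passed (−0.08 to 0.14).

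The largest increases were those of Grm4, Grm8 and Grm2, which are presynaptic metabotropic receptors. Grm4 had 4.98, 5.87 and 3.97 CPM in the GFP mice and 18.8, 16.0 and 8.49 in the miR124sp mice 14, 2 and 9 (log2 fold change 1.56, SE 0.27, n = 3 mice per group, adjusted p = 0.00541, edgeR). Grm8 had 10.1, 7.98 and 13.8 against 25.9, 25.8 and 14.6 (log2 fold change 1.08, SE 0.24, adjusted p = 0.013). Grm2 had 46.1, 53.3 and 55.6 against 104, 104 and 80.6 (log2 fold change 0.91, SE 0.11, adjusted p = 0.00368). In all 3, which are Gi-coupled, mouse 9 lay nearest to the GFP mice, and the groups did not overlap. Grm7, of the same kind, had 0.18 (SE 0.09, adjusted p = 0.176).

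Grik3 had 61.0, 77.2 and 80.9 CPM in the GFP mice and 147, 141 and 107 in the miR124sp mice (log2 fold change 0.87, SE 0.13, adjusted p = 0.00434, edgeR). With miR124sp it was thus lower in the AGO2 precipitate and, against GFP124, higher in the tissue, the only receptor gene called in both assays. The call of Grik3 in the precipitate was lost when any single library compared was left out. Against the GFP125 mice its mRNA log2 fold change with miR124sp was 0.14 (SE 0.13, adjusted p = 0.569, edgeR). Gria2, Gabra5 and Gabra3, the genes higher in the precipitate, had mRNA log2 fold changes of −0.08 (SE 0.10), −0.26 (SE 0.13) and −0.12 (SE 0.12), none of which passed the test.

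Of the 5 NMDA receptor genes tested, 3 rose. Grin2a had 108, 97.5 and 131 CPM against 170, 191 and 182 (log2 fold change 0.71, SE 0.11, adjusted p = 0.00431, edgeR). Grin2b had 182, 172 and 216 against 293, 267 and 259 (0.53, SE 0.10, adjusted p = 0.00664). Grin1, the subunit that every NMDA receptor contains, had 33.4, 40.0 and 36.4 against 52.0, 52.9 and 52.9 (0.54, SE 0.08, adjusted p = 0.00431). Grin1 has 3 RefSeq transcripts, so that its level is uncertain. Grin2c had −0.36 (SE 0.13, adjusted p = 0.067) and Grin2d 0.19 (SE 0.10). Grid1 rose little, from 89.0, 83.6 and 97.2 to 111, 112 and 104 CPM (0.29, SE 0.08, adjusted p = 0.0244).

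Of the GABA genes, Gabrd had 27.2, 30.7 and 36.0 CPM in the GFP mice and 60.7, 59.2 and 42.7 in the miR124sp mice (log2 fold change 0.81, SE 0.14, adjusted p = 0.00611, edgeR). Gabrb2 had 405, 415 and 491 against 696, 783 and 540 (0.64, SE 0.14, adjusted p = 0.0113). Gabrg3 had 4.56, 4.16 and 5.99 against 7.36, 7.22 and 6.89 (0.56, SE 0.16, adjusted p = 0.036), and Gabbr2 251, 269 and 315 against 344, 380 and 356 (0.38, SE 0.09, adjusted p = 0.0177). The partner of Gabbr2, Gabbr1, had 0.15 (SE 0.08, adjusted p = 0.228). Gabrg1 was the 1 gene to fall, from 77.6, 69.7 and 72.5 CPM to 39.2, 42.3 and 41.2 (−0.83, SE 0.07, adjusted p = 0.00368), and the spread within its groups was small. The 12 higher genes became 7 without GFP mouse 15 and 7 without miR124sp mouse 2, and the lower ones 4 without miR124sp mouse 9 and 2 without GFP mouse 8.

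**Figure D5:**
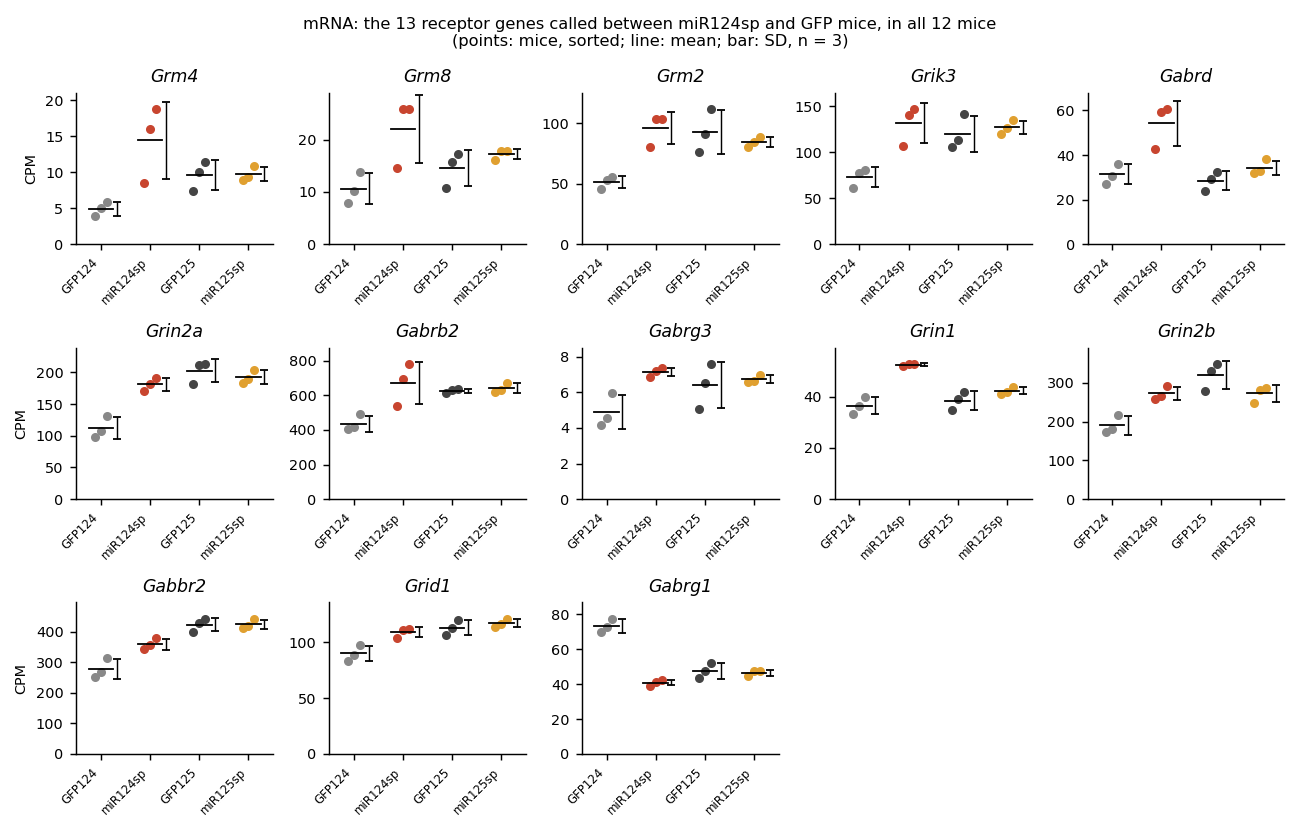
mRNA level in CPM (vertical axes, from 0) of the 13 genes called between miR124sp and GFP mice of the miR-124 experiment, with 1 point per mouse in all 4 groups, the group mean (line) and SD (bar, n = 3). In 9 of the 13 panels the GFP124 mice lie outside the range of the GFP125 and miR125sp mice, and in 9 the miR124sp mice overlap with that range, beside 71.5% and 84.2% of all genes called.

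The GFP mice of the miR-124 experiment stood apart from the other experiment. In 9 of the 13 called genes (Grik3, Grin2a, Grin2b, Grid1, Grm2, Grm4, Gabrb2, Gabrg1 and Gabbr2) the 3 GFP124 mice lay outside the range of all 6 mice of the miR-125 experiment, and in 9 of the 13 the miR124sp mice overlapped with that range. Of all 3018 genes called between miR124sp and GFP124, which were chosen for the same difference, 71.5% had GFP124 mice outside and 84.2% had overlapping miR124sp mice, and of all 12971 genes tested 35.6% and 87.6%. Between the 2 groups of GFP mice, 2 of 29 genes were higher in GFP124 (Gabrg1 and Grin2c) and 11 lower, beside 16.3% of all genes in each direction. By label these groups differ in the experiment only. However, an unexplained mark in the headers of the deposited counts was carried by all GFP124 mice and only by mouse 4 of GFP125. Set against the GFP125 mice instead, an alternative chosen after the data were seen, the miR124sp mice had 2 genes higher (Gabrd, 0.97, SE 0.15, and Grin1, 0.47, SE 0.08) and 1 lower (Gabra2, −0.47, SE 0.08), beside 2.97% and 2.73% of all genes. Gabrd and Grin1 were therefore higher against both groups of GFP mice. Grin2a, Grin2b, Gabbr2 and Grid1 turned to values below 0 (−0.17, −0.23, −0.24 and −0.05). The rest of the called genes kept their direction but did not pass. They were Grm4 (0.65), Grm8 (0.59), Gabrg3 (0.15), Grik3 (0.14), Gabrb2 (0.10), Grm2 (0.03) and Gabrg1 (−0.22). The miR124sp and GFP125 mice differ in both sponge and experiment, which cannot be told apart for any gene, Gabrd and Grin1 included. Experiment and GFP group cannot be told apart either.

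The miR124sp mice also differed among themselves. In 9 of the 13 genes mouse 9 lay nearest to the GFP mice. Without mice 14 and 2 the count of genes called fell to 0 in edgeR (12 at an unadjusted p below 0.05, beside 16.2% of all genes), with 1 mouse then standing for the group and assumed to vary like the others. A list of 8 genes of the cerebral cortex, chosen after the data were seen, summed to 863 and 875 CPM in miR124sp mice 14 and 2 and to 520 in mouse 9, against 379 to 413 in GFP124 mice and 487 to 606 in the miR-125 experiment. Of these genes 5 of 8 were higher with miR124sp. A list of 4 genes of CA3 pyramidal cells summed to 287 and 326 CPM in mice 14 and 2, and to 422 to 532 in the other 10 mice. None of these CA3 genes was called higher or lower with miR124sp. The CA1 list of 4 genes summed to 506 to 580 CPM in GFP124 and 611 to 763 in miR124sp, with 3 genes higher and 1 lower. The dentate gyrus list of 5 genes summed to 235 to 378 CPM in GFP124 and to 348, 428 and 460 in miR124sp mice 14, 2 and 9. Of these genes 2 were higher and none lower. Grm2 and Gabrd, known from dentate granule cells, were higher too. Unlike the list, they had their lowest miR124sp values in mouse 9, at 80.6 and 42.7 CPM. Grik4, a gene of CA3 pyramidal cells too, had 43.1, 56.3 and 95.2 CPM in mice 14, 2 and 9 and at least 71.7 in each of the other mice.

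Glial markers moved as well. The 14 astrocyte markers summed to between 7248 and 8553 CPM in GFP124, 6011 and 6211 in miR124sp, and 5571 and 6457 in the miR-125 experiment, with 7 of 12 tested lower with miR124sp and none higher. The oligodendrocyte markers summed to between 1003 and 1086 CPM in GFP124, 1342 and 1714 in miR124sp, and 880 and 1147 in the others, with 8 of 12 higher and none lower. The microglia markers summed to between 807 and 902 CPM in GFP124, 710 and 739 in miR124sp, and 656 and 757 in the others, with 6 of 9 lower and none higher. Of 5 endothelial markers tested 1 was higher. Neuron markers had 5 of 14 higher and 2 lower. Among the markers listed at under 1 CPM in every mouse were Rbfox3, Gjb6, Slc4a4 and Pdgfra. The part of dissection, glial content or experiment in the receptor values was not tested.

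In the miR-125 experiment no receptor gene passed the test in edgeR or in DESeq2, beside 0.0554% of all 12638 genes higher and 0.150% lower in edgeR. At an unadjusted p below 0.05 there were 5 of 29, beside 13.1% of all genes. Without GFP125 mouse 15, Gabra3 passed as higher. The log2 fold changes ran from −0.23 (Grin2b, SE 0.08, 95% interval −0.41 to −0.044) to 0.32 (Gabrd, SE 0.11, 95% interval 0.065 to 0.57). Grin2b had 332, 349 and 279 CPM in GFP125 and 288, 249 and 281 in miR125sp mice. Of the others that hold a miR-125 match, Grik3 had 0.09 (95% interval −0.11 to 0.29), Gabrb2 0.03 (−0.066 to 0.13) and Gabrg3 0.07 (−0.26 to 0.40). The intervals of Grin2b, Grik3, Gabrb2 and Gabrg3 lay below their miR124sp values against GFP124, which were 0.53, 0.87, 0.64 and 0.56. Against GFP125 the miR124sp values were −0.23, 0.14, 0.10 and 0.15, each inside its interval.

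The difference between both sponge effects was itself tested over all 12 mice. It passed for 9 of the 29 genes, positive for 8 (Grm4, Grm2, Grin2a, Grik3, Grin2b, Gabrb2, Grin1 and Gabbr2) and negative for Gabrg1, beside 7.42% of all genes higher and 7.06% lower. Grid1, Grm8, Gabrd and Gabrg3, called in the miR-124 experiment, did not pass this test. The positive ones became 5 without GFP124 mouse 15, miR124sp mouse 2, miR125sp mouse 6 or miR125sp mouse 9, each left out alone, and the negative ones 4 without miR124sp mouse 9.

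Of the 63 other synaptic genes tested in the miR-124 experiment, 15 were higher and 6 lower, and in the miR-125 experiment none passed. Those with the smallest adjusted p were Gabarapl2, which takes part in GABA-A receptor trafficking (−0.40, SE 0.06), Gsg1l, an AMPA receptor auxiliary subunit (0.84, SE 0.14), Nptx2, which clusters AMPA receptors (0.54, SE 0.10), and Slc17a6, a vesicular glutamate transporter best known from the thalamus (1.91, SE 0.37) that is also on the cortical list.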

How the data were processed

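For both assays the deposited values are raw counts, made by the authors per 3′UTR for the RIP-seq (mapped to mm9) and per RefSeq transcript for the mRNA-seq, with the length of each row. GEO's processing notes name mm10, STAR and edgeR, and no source used here gives the counting program. RIP rows were named and placed with GENCODE M1 on NCBIM37 (mm9), and 98.0% of 38158 had a gene name. RefSeq rows were summed per symbol (98.7% of 32850 named, with 0.849% of counts unnamed).

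RIP rows with at least 10 counts in every library (8203) were fitted over all 8 libraries with edgeR 4.0.16 (quasi-likelihood). For miR292sp against sham, libraries were scaled to Gapdh and its 50 neighbours above and below by raw ratio, and for the sponges by TMM. After filterByExpr and TMM, either mRNA experiment was fitted by itself over 6 mice, and the difference of effects over 12 (13268 genes). P-values were adjusted by Benjamini-Hochberg over all rows tested. SE is the log2 fold change over the root of F, and 95% intervals use the t distribution with the degrees of freedom of the test. P-values measure the spread between these libraries, which scattered 3.51 to 20.8 times as much as counting error (chi-square per degree of freedom). Seed matches were searched in the placed rows.

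Scripts were tested on simulated counts. DESeq2 1.42.0, other scalings and filters, single libraries left out, a header mark and other control mice were tried as alternatives. Genes given in every library were those past adjusted p 0.05 with a sponge, and the 3 highest and 3 lowest glutamate and GABA genes over sham, and up to 4 other synaptic genes per comparison are named. The members and lists were chosen with earlier results of these data known.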

Additional observations from a re-analysis of the deposited data

Results flagged for a closer look

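In the mRNA-seq the effects of both sponges differed for 9 of the 29 receptor genes by the test of the difference itself (edgeR, interaction over 12 mice, miR124sp effect minus miR125sp effect, adjusted p below 0.05), beside 7.42% of all genes with a higher and 7.06% with a lower effect. The difference was positive for Grm4 (1.48, SE 0.35, adjusted p = 0.0126), Grm2 (1.05, SE 0.18, adjusted p = 0.00222), Grin2a (0.77, SE 0.13, adjusted p = 0.00264), Grik3 (0.77, SE 0.18, adjusted p = 0.0133), Grin2b (0.75, SE 0.14, adjusted p = 0.00344), Gabrb2 (0.59, SE 0.15, adjusted p = 0.0211), Grin1 (0.37, SE 0.11, adjusted p = 0.0416) and Gabbr2 (0.37, SE 0.11, adjusted p = 0.0396). It was negative for Gabrg1 (−0.82, SE 0.10, adjusted p = 0.000995). For Grin2a, Grm2 and Gabrg1 the call held under every alternative run, among them with a header mark, carried by 8 of the 12 mice, as a covariate. The mark was uneven over the groups. All GFP124 and all miR125sp mice carried it, but of the others only miR124sp mouse 14 and GFP125 mouse 4. That fit therefore cannot fully separate the mark from the sponge effects. In it 2 genes were positive (Grin2a and Grm2) and 2 negative (Gabrg1 and Gabra5).

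Between the 2 groups of GFP mice alone, the same genes had log2 differences (GFP124 minus GFP125) of −0.90 (Grm4), −0.87 (Grm2), −0.86 (Grin2a), −0.72 (Grik3), −0.75 (Grin2b), −0.52 (Gabrb2), −0.06 (Grin1), −0.61 (Gabbr2) and 0.63 (Gabrg1). All but that of Grin1 passed the test, and the GFP mice enter both values.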

How the results depend on the processing

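Over single receptor genes, 2332 of 2556 recomputed values kept their direction and their side of the threshold, 117 lost and 67 gained significance, and 40 reversed. Scaling decided most of the reversals, by construction, since it shifts all rows. For miR292sp against sham, TMM gave 6 genes higher and 10 lower and RLE 6 and 8. Under TMM the log2 fold change became negative for Gabra2 (−0.052), Grin2a (−0.11), Grik2 (−0.17), Grm5 (−0.25), Grik5 (−0.48), Grm3 (−0.49), Gabrg3 (−0.55), Grid1 (−0.68), Gria2 (−0.69), Gabrb1 (−0.79), Gabra3 (−0.93), Gabra4 (−0.995), Gabbr1 (−1.04), Grin3a (−1.16) and Gabra5 (−1.37), and under RLE for Gabra2 (−0.027), Grin2a (−0.087), Grik2 (−0.14), Grm5 (−0.23), Grik5 (−0.46), Grm3 (−0.46), Gabrg3 (−0.53), Grid1 (−0.65), Gria2 (−0.66), Gabrb1 (−0.76), Gabra3 (−0.91), Gabra4 (−0.97), Gabbr1 (−1.02), Grin3a (−1.14) and Gabra5 (−1.35). Gabra5 was also negative without sham replicate 8 (−0.57, against 0.54 without sham replicate 7). The number of genes over 4-fold became 0 under TMM and ran from 3 to 10 with 1 library left out, while the genes called higher ran from 12 to 21 and lower from 0 to 1. Scaled to the reference rows around Gapdh, miR124sp against miR292sp gave 0 higher and 16 lower, with Gria2 (−0.47), Grm5 (−0.54), Gabrg3 (−0.79), Grik5 (−0.83), Gabra2 (−0.87) and Gabrb2 (−0.91) reversed, and miR125sp gave 11 lower, with Gria2 (−0.44), Gabrg3 (−0.63), Grm5 (−0.66) and Gabrb2 (−0.71) reversed. For miR124sp, filterByExpr gave 1 higher and 0 lower, no filter gave 1 higher, and leaving out 1 library gave 1 to 3 higher and 0 to 0 lower. There Gria2 lost its call under RLE, DESeq2 and both other filters, Gabra3 under both other filters and Grik3 under filterByExpr. Grid1 gained a call with DESeq2 and with only the 2 groups. For miR125sp, DESeq2 and a fit of only the 2 groups gave 1 higher each. In the mRNA-seq, miR124sp against GFP had 3 lower without a filter, with DESeq2, with all 12 mice in 1 fit and with the header mark as a covariate. Against the GFP mice of the other experiment 2 were higher, and Gabbr2 (−0.24), Grin2b (−0.23), Grin2a (−0.17) and Grid1 (−0.054) reversed. With 1 mouse left out 7 to 13 were higher and 1 to 4 lower, and without both miR124sp mice 14 and 2, 0 and 0, and for miR125sp 0 to 1 were higher. The difference of both effects had 2 lower without a filter, 2 higher and 2 lower with the header mark, 5 to 10 higher and 1 to 4 lower with 1 mouse left out, and 3 higher and 2 lower without mice 14 and 2. The cause of these changes was not tested. Gabrg1, Grin2a and Grm3, with under 100 counts in every RIP library, had standard errors of 0.50 to 0.62 over sham, so that only large changes could pass. No paired analysis was possible because the groups compared share fewer than 2 replicate numbers.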
